A study of Rattus norvegicus with 8 samples.

Results

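Olfactory receptor genes carry the name Olr and a number in the rat, and the custom rat array of this study holds 1125 probes for them. A probe was counted as an Olr probe when its gene name in the scanner files began with Olr and a digit, once the suffix that marks predicted genes was removed. The 1125 probes stand for 1104 gene names and make up 7.40% of the 15207 probes that are not controls. The suffix was present on 1062 of them. Each probe is a 60-base oligonucleotide, and 20 oligonucleotides were spotted at 2 places, so the set holds 1105 different sequences. No probe outside the set shared a sequence with it. Through its RefSeq accession, or else through a RefSeq synonym of its Olr name, 1114 probes could be given a current gene symbol, in most cases an Or name. All were measured in whole hippocampi of 2-month-old rats. The PNFLX group (4 samples) had received fluoxetine, a blocker of serotonin reuptake, at 10 mg/kg from postnatal day 2 to 21. The control group (4 samples) had received the vehicle, 5% sucrose solution, over the same days. Nothing in the labels says whether each sample came from a separate animal, so p-values measure the spread between these samples only. All 8 arrays lay on 1 slide, with the PNFLX arrays in its second row and the control arrays in its first row, so that slide row and treatment cannot be told apart. In both groups the replicate number is the place along the slide row.

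Olfactory receptors are G protein-coupled receptors that detect odorants in the cilia of olfactory sensory neurons of the nose, where each neuron is known to express essentially a single receptor gene. The receptor activates the G protein alpha subunit Gnal, which stimulates the adenylyl cyclase Adcy3, and the cyclic AMP that is formed opens a channel built from Cnga2, Cnga4 and Cngb1. Receptor transport to the cell surface depends on Rtp1 and Rtp2, and Omp marks mature olfactory sensory neurons. Class I receptors (families Or51 to Or56) and class II receptors (families Or1 to Or14) are the 2 branches of the mammalian family, and most of their genes lie in clusters of near relatives. Expression of single receptor genes outside the nose has been described for several tissues, including brain.

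Levels are given as log2 of the scanner's processed signal after subtraction of the 75th percentile of the 15207 probes on the same array, so that 0 is the brightness of a fairly bright probe of the same array. Brightness also depends on the probe's own sequence, so an order of probes by level is an order of spots and not of transcript amounts. The Olr probes lay close to the bottom of this scale on every array. Their median level was -7.79, -7.67, -6.61 and -7.66 on PNFLX arrays 1 to 4, and -7.46, -7.57, -7.20 and -7.19 on control arrays 1 to 4. The 77 negative control spots, which set the floor of the scale, had medians of -8.46, -8.47, -7.00 and -8.77 on the PNFLX arrays, and -8.32, -8.50, -7.60 and -8.38 on the control arrays. The Olr median thus stood 0.39 to 1.11 above that of the negative controls in PNFLX and 0.40 to 1.19 above it in control. All other probes had medians between -2.80 and -2.39. Against the 95th percentile of the negative control spots, 42.5%, 48.6%, 45.4% and 55.6% of the Olr probes were brighter in PNFLX, and 47.7%, 46.9%, 34.3% and 49.5% in control. The ranges of the groups overlapped in each of these measures. PNFLX 3 stood apart, with the highest Olr median and the highest negative control median of the 8 arrays.

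The scanner software marks a spot as well above background when its signal exceeds the background by a set margin. It marked 289, 333, 210 and 343 of the 1125 Olr probes on the PNFLX arrays, and 313, 312, 223 and 346 on the control arrays. These are 25.7%, 29.6%, 18.7% and 30.5% in PNFLX, and 27.8%, 27.7%, 19.8% and 30.8% in control, while 74.5% to 81.7% of the other probes passed on each array. Both groups had 3 arrays above 25% and 1 array, replicate 3, below 20%. The mean share in PNFLX was 0.42 percentage points below that in control, which is far less than the spread between arrays of 1 group. The single array PNFLX 3 combined the highest Olr median with the fewest detected Olr probes. No Olr spot was saturated.

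**Figure D1:**
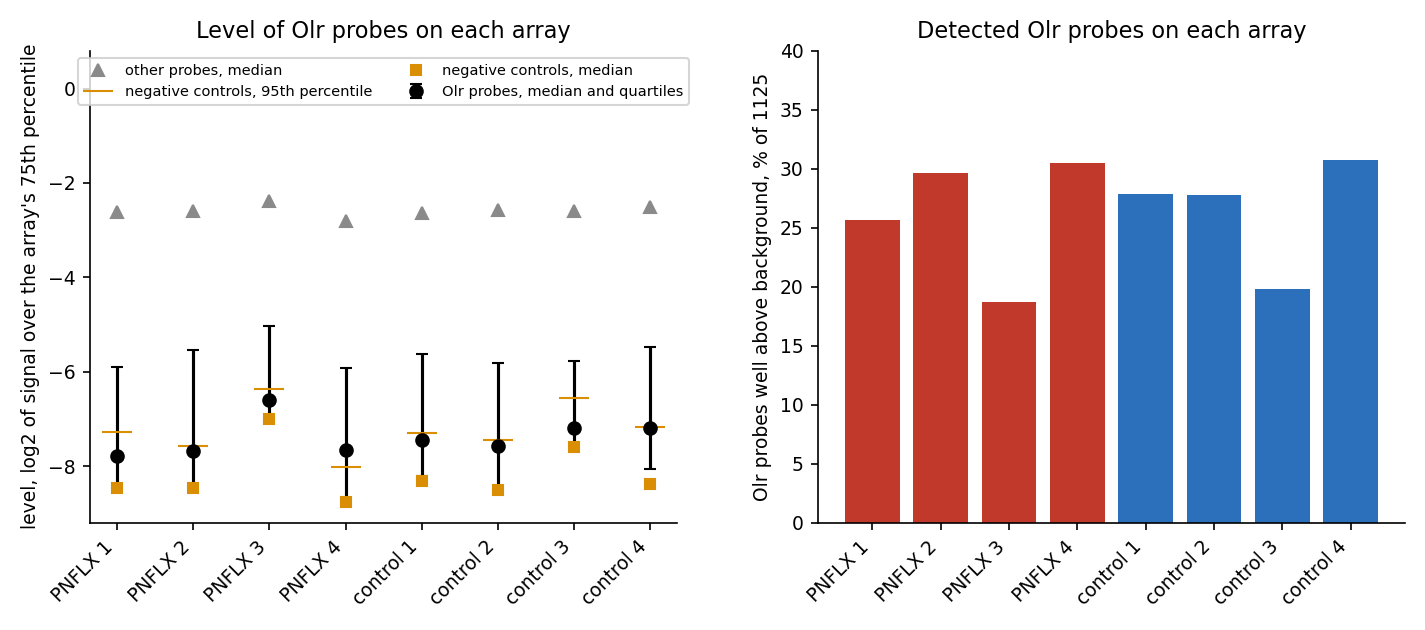
Left, level on each array (log2 of signal over the array's 75th percentile) of the Olr probes (median with quartiles), all other probes (median) and the negative control spots (median and 95th percentile). Right, share of the 1125 Olr probes well above background, in percent, with PNFLX arrays in red and control arrays in blue. The Olr medians lie 0.39 to 1.19 above the negative control medians, and replicate 3 has the lowest share in each group.

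Over the 8 arrays, 590 Olr probes (52.4%) were well above background on no array, 245 on 1 to 3 arrays, 172 on 4 to 7 arrays and 118 on all 8. Among all other probes 10.8% were above background on no array and 68.6% on all 8. Only 7 Olr probes had a mean level above the 75th percentile of the arrays. In RNA of a whole hippocampus, fewer cells with a transcript and less of it per cell cannot be told apart.

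The 10 brightest Olr probes among those detected on all 8 arrays are Olr1416, Olr384, Olr776, Olr1439, Olr821, Olr309, Olr3, Olr1423, Olr1335 and Olr4, with mean levels from 1.46 down to -0.72. Their RefSeq names place all 10 in class II. By the positions in the files (build rn4), 4 probes lie on chromosome 1 and 3 on chromosome 10. None of the 10 genes overlapped another gene in the RefSeq table of assembly GRCr8, and each had an olfactory receptor gene as a direct neighbour on at least 1 side. The sequences of the brightest 4 are shown because they are the oligonucleotides behind the strongest olfactory receptor signal, with runs of 5 or more purines in capitals.
Olr1416 (Or2t48e): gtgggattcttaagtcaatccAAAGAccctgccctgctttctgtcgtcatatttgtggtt
Olr384 (Or9i1b): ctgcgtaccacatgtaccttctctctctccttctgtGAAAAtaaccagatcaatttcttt
Olr776 (Or4f7c): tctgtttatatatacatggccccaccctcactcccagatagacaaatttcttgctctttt
Olr1439 (Or2ak6): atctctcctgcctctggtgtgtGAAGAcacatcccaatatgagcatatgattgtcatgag
The Olr1416 probe is at chr10:44162478-44162537 (minus strand), that of Olr384 at chr1:217228834-217228893 (plus strand), that of Olr776 at chr3:97344126-97344185 (minus strand) and that of Olr1439 at chr10:44717906-44717965 (plus strand). No exon annotation of rn4 was used.

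Olr1416, the brightest, had levels of 1.19, 1.10, 1.27 and 0.97 in PNFLX, against 1.40, 1.80, 2.10 and 1.86 in control. The groups did not overlap, but the difference of -0.66 (SE 0.17) missed the threshold in limma (adjusted p = 0.162). Olr309 (Or13a27e) had levels of 0.61, 0.70, 0.54 and 0.57 in PNFLX, against -0.02, -0.02, 0.20 and -0.04 in control, again without overlap and again short of the threshold (difference 0.58, SE 0.12, limma adjusted p = 0.089). Olr776, spotted in row 190 of the array's 192 spot rows, had levels of -0.65, 0.64, 0.39 and -1.32 in PNFLX. Its levels in control samples 2 to 4 were 2.07, 2.30 and 2.50, and the spot of control 1 carried an outlier flag and was left out. The difference of -2.53 (SE 0.47) gave an adjusted p of 0.079 in limma. Groups overlapped for the other 7, of which Olr1335 in spot row 6 differed most (1.56, SE 0.51, limma adjusted p = 0.270) and Olr4 least (-0.003, SE 0.38, limma adjusted p = 0.998). None of the 10 brightest passed the test. With normexp background correction and with mean brightness, 4 of them passed in limma, namely Olr1335 (adjusted p = 0.038 in both), Olr1416 (0.016 and 0.020), Olr309 (0.0087 and 0.029) and Olr776 (0.0034 and 0.0050). In those 2 settings 628 and 450 of all 11600 tested probes were called.

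Of 112 class I probes 33 (29.5%) had 4 or more arrays well above background, and of 951 class II probes 243 (25.6%). The remaining 62 probes, placed in neither class by a RefSeq name, gave 14 (22.6%). Median levels were -7.05 for class I, -7.29 for class II and -7.27 for the others. By chromosome the share ran from 15.8% of 19 probes on chromosome 13 to 37.1% of 116 on chromosome 10. The largest sets, 282 probes on chromosome 3 and 268 on chromosome 1, had 62 and 76 probes past that count of arrays.

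Base composition went with detection. Among Olr probes with at most 35% G and C, 10 of 223 (4.48%) were above background on at least 4 arrays, against 78 of 415 (18.8%) at 35% to 40%, 162 of 424 (38.2%) at 40% to 45%, 11 of 21 (52.4%) at 45% to 50% and 29 of 42 (69.0%) above 50%. Across the 1125 probes the G and C share correlated with mean level at r = 0.48, and across the 14082 other probes at r = 0.01. These are descriptions across probes, which share the 8 arrays and in part their sequences. Chromosome 10, with the largest detected share, also had the highest median G and C share of the larger sets (43.3%, against 38.3% on chromosome 3).

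The signalling partners of olfactory receptors were split. Of the 28 genes listed for olfactory signalling, transport and sensory neuron identity, 23 had a probe. Adcy3, the olfactory adenylyl cyclase, was well above background on all 8 arrays, with levels of -1.40, -1.81, -1.83 and -2.62 in PNFLX and -1.29, -1.75, -1.84 and -1.85 in control. Gnal had 2 probes, both above background on all 8 arrays. The brighter one read -2.92, -2.94, -2.78 and -3.63 in PNFLX and -2.72, -2.67, -2.74 and -2.53 in control (difference -0.40, SE 0.20, limma adjusted p = 0.454). The other Gnal probe, in spot row 184, differed by 0.06 (SE 0.28, limma adjusted p = 0.942). Both genes are also known to be expressed in brain outside the olfactory system. Lhx2, a transcription factor of sensory neuron progenitors and of the forebrain, averaged 2.61 ± 0.58 in PNFLX and 2.49 ± 0.42 in control (SD, n = 4 each).

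Of the genes tied most closely to olfactory sensory neurons, Omp, Cnga2, S100a5 and Cnga4 were at or near background. Omp was above background on 1 PNFLX array and on no control array, with levels of -8.28, -6.99, -4.25 and -5.86 in PNFLX and -5.79, -5.53, -5.27 and -5.02 in control. Cnga2 was above background on no array, with levels from -8.77 to -7.03 in PNFLX and from -8.39 to -7.50 in control. S100a5, a calcium-binding protein of sensory neurons, was above background only on PNFLX 3 (level -3.69), and read between -8.87 and -7.02 on the 7 other arrays. Cnga4 was above background on 2 control arrays and on no PNFLX array. Stoml3, a stomatin-like protein of sensory neuron cilia, was above background on 3 PNFLX and 2 control arrays, with levels of -5.07, -4.39, -4.10 and -6.07 in PNFLX and -5.28, -5.54, -5.09 and -5.69 in control. Cngb1 had 2 probes, of which that in spot row 133 was above background on all 8 arrays (mean level -4.39) and that in row 26 on PNFLX 3 alone (mean level -7.29). Of 8 markers listed for hippocampal neurons, some of them general neuronal genes, 7 were above background on all 8 arrays, with mean levels from -0.83 (Slc17a7, a vesicular glutamate transporter) to 5.98 (Nrgn). Prox1, a transcription factor of dentate granule cells, averaged -4.94 and was above background on 4 arrays. Of the 23 genes, 16 passed the filter with their brighter probe, 5 of them with a higher and 11 with a lower mean in PNFLX, and 0 passed the test in limma. Their median difference was -0.27, and adjusted p ran from 0.085 to 0.959. The smallest belonged to Arrb2 (difference -1.31, SE 0.27), an arrestin that binds many receptors, whose probe lies in spot row 191.

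Other chemosensory receptor families looked alike on this array. Of 14 probes for trace amine-associated receptors (Taar) 3 passed the filter of at least 4 arrays above background, of 7 for vomeronasal type 1 receptors 0, and of 10 for taste receptors 1. Their median levels were -7.35, -7.85 and -7.15, against -7.26 for the Olr probes and -2.61 for all other probes. No probe of these 3 families was called between PNFLX and control.

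For the comparison of PNFLX with control, limma was fitted to the 11600 probes detected in that sense on 4 or more of the 8 arrays, with Benjamini-Hochberg adjustment over all of them. Of the 1125 Olr probes 290 (25.8%) entered this test and 835 did not. A probe above background in 1 group only could enter through that group, so the tested probes are not a sample of all Olr probes. Adjusted p was under 0.05 for 10 Olr probes, 5 higher and 5 lower in PNFLX. Across the whole array 0.371% of the tested probes were higher (43 of 11600) and 0.302% lower (35 of 11600) at that threshold. The 10 called Olr probes are also the 10 of smallest p. Their sequences and positions on rn4 follow, since these oligonucleotides carry the calls, with runs of 5 or more purines in capitals.
Olr56 (Or51f23c), class I, chr1:160652689-160652748, minus strand: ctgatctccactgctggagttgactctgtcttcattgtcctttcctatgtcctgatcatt
Olr46 (Or52k1), class I, chr1:160327337-160327396, plus strand: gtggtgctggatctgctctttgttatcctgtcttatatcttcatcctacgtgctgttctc
Olr694 (Or4c1), class II, chr3:73533072-73533131, minus strand: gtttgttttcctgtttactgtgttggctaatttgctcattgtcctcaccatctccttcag
Olr769 (Or4k48), class II, chr3:97100599-97100658, minus strand: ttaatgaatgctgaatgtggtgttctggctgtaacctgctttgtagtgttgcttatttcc
Olr575 (Or5w11), class II, chr3:71229128-71229187, plus strand: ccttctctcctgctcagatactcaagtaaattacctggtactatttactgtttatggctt
Olr226 (Or6a2), class II, chr1:164352030-164352089, minus strand: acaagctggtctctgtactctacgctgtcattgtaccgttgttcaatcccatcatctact
Olr733 (Or4x11), class II, chr3:74429619-74429678, minus strand: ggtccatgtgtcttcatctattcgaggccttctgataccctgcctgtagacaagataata
Olr868 (Or10ak7e), class II, chr5:139441940-139441999, minus strand: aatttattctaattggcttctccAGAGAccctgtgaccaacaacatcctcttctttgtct
Olr1638 (Or5au1), class II, chr15:27492076-27492135, minus strand: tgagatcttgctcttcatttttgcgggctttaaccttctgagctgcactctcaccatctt
Olr336 (Or5an6), class II, chr1:215444562-215444621, plus strand: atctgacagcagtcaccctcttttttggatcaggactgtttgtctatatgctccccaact

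Olr46, in spot row 1, had levels of -3.50, -3.92, -3.80 and -5.11 in PNFLX, against -7.28, -7.72, -6.65 and -6.71 in control. It was well above background on all 4 PNFLX arrays and not well above background on any control array, so its fold is a bound, at least 4.16-fold higher in PNFLX (limma adjusted p = 0.0158). The bound compares the PNFLX mean with a control mean in which each array counts at no less than its faintest signal well above background. Olr56, in spot row 2, had levels of -5.04, -3.71, -4.34 and -3.33 in PNFLX, against -6.97, -7.25, -6.75 and -7.24 in control. It too was above background on every PNFLX array and no control array, and was at least 4.10-fold higher in PNFLX (limma adjusted p = 0.0121). Olr694, in spot row 10, had levels of -3.72, -3.91, -3.83 and -3.43 in PNFLX, against -5.92, -6.40, -7.04 and -5.47 in control, at least 4.29-fold higher (limma adjusted p = 0.0157). Olr769, in spot row 7, had levels of -4.06, -4.55, -4.35 and -4.51 in PNFLX, against -6.76, -7.74, -6.60 and -5.95 in control, at least 3.20-fold higher (limma adjusted p = 0.0277). For none of these 4 did the groups overlap, and for all 4 the control arrays gave no signal well above background. Olr575, in spot row 18, was above background on 4 PNFLX and 3 control arrays, with levels of -3.16, -3.56, -3.15 and -3.66 in PNFLX, against -4.26, -4.68, -5.23 and -4.80 in control. Its difference was 1.37 (SE 0.23, limma adjusted p = 0.045). All 5 probes that were higher in PNFLX lie in the first 20 spot rows.

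Olr226 was spotted at 2 places, and its spot in row 186 fell in PNFLX. There its levels were -6.99, -7.52, -6.34 and -8.12 in PNFLX, against -4.89, -4.96, -4.67 and -4.56 in control. It was not well above background on any PNFLX array, and was at least 2.40-fold lower in PNFLX (limma adjusted p = 0.0273). Its gene overlaps the uncharacterised locus LOC134484910 in RefSeq. Olr733, in spot row 176, had levels of -3.81, -3.88, -3.53 and -4.23 in PNFLX, against -2.70, -2.94, -2.72 and -2.54 in control (difference -1.14, SE 0.18, limma adjusted p = 0.033). It is the only called Olr probe that was above background on all 8 arrays. Olr868, in spot row 148, had levels of -5.25, -5.36, -4.84 and -5.26 in PNFLX, against -4.31, -4.11, -3.89 and -3.99 in control (difference -1.10, SE 0.16, limma adjusted p = 0.029). Olr1638, in spot row 165, had levels of -5.76, -5.27, -5.51 and -5.25 in PNFLX, against -4.60, -4.37, -4.35 and -4.36 in control (difference -1.03, SE 0.15, limma adjusted p = 0.032). Olr336, in spot row 144, had levels of -6.28, -6.35, -6.57 and -6.46 in PNFLX, against -5.55, -5.40, -5.83 and -5.34 in control (difference -0.88, SE 0.15, limma adjusted p = 0.049). This last call passed in 1 of 20 alternatives, and its adjusted p was 0.0505 with flagged spots kept. The groups did not overlap for any of the 5, and all 5 lie in spot rows 144 to 186.

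The size of these differences depended on the background correction. The 5 higher probes differed by 1.36 to 3.01 in processed signal, by 0.40 to 0.63 with normexp and by 0.44 to 0.72 with mean brightness, and 4 and 2 of the 5 passed in those 2 fits. The 5 lower probes differed by -2.47 to -0.88 in processed signal, by -0.79 to -0.17 with normexp and by -1.10 to -0.40 with mean brightness, and 3 of the 5 passed in each. The bounds on folds above hold for processed signal only.

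**Figure D2:**
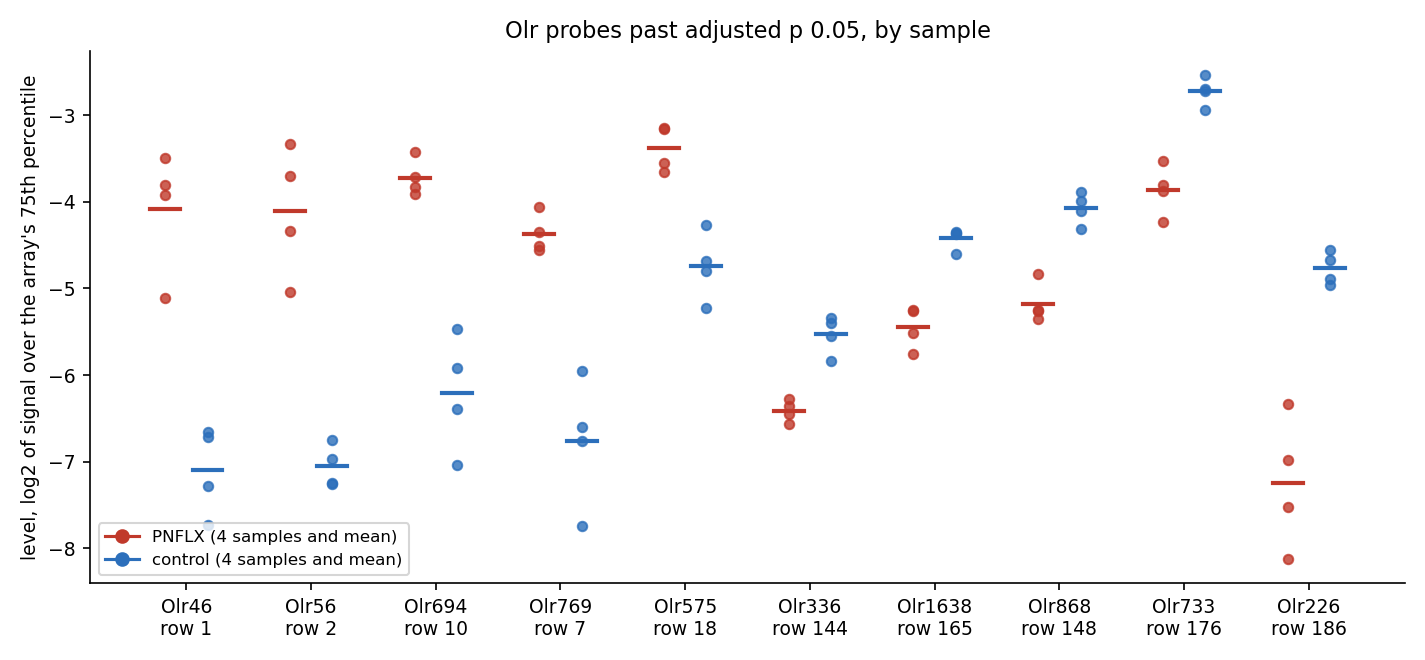
Level of the 10 called Olr probes in each sample (log2 of signal over the array's 75th percentile), with PNFLX in red and control in blue, points for the 4 samples of each group and bars for their means. Probes are ordered by their log2 difference, from Olr46 (3.01) to Olr226 (-2.47), with the spot row under each name.

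With no filter on dim probes, 7 Olr probes were called among all 15207, 6 higher and 1 lower in PNFLX, where 0.217% of all probes were called higher and 0.0855% lower. These include 5 of the 10 above. The other 2 were Olr1172 (Or7d11) in spot row 3 and Olr514 (Or8k40) in spot row 20. Olr1172 had levels of -5.03, -4.95, -5.41 and -4.84 in PNFLX, against -7.51, -7.14, -6.83 and -7.46 in control, at least 2.12-fold higher (limma adjusted p = 0.0077). Olr514 had levels of -6.26, -5.29, -5.47 and -5.98 in PNFLX, against -8.05, -8.09, -7.29 and -8.00 in control, at least 1.31-fold higher (limma adjusted p = 0.030). Neither was above background on any control array. Without scaling between arrays, where the median of all tested probes moved to 0.26 from -0.03, 13 Olr probes were called, 11 higher and 2 lower in PNFLX. In that setting 143 of all 11600 tested probes were called, and 79.3% of the tested probes outside the set had a higher mean in PNFLX.

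A count of calls hides that the tested Olr probes leaned to lower values in PNFLX. Their median difference was -0.24, and 111 of 290 (38.3%) had a higher mean in PNFLX, against a median of -0.03 and 45.7% for the other tested probes. Groups did not overlap for 56 of the 290 (19.3%) with PNFLX lower and for 18 (6.21%) with PNFLX higher, where 6.41% of all tested probes were lower and 4.33% higher without overlap. At an unadjusted p under 0.05, limma gave 63 lower and 26 higher among the 290 Olr probes, where 7.4% of all tested probes were lower and 5.09% higher. Among the 118 Olr probes above background on all 8 arrays, which could not have entered through 1 group, the median difference was -0.16 and 70 were lower. Over all 1125 Olr probes, dim ones included, the median difference was -0.004, and it was -0.34 when PNFLX 3 was left out.

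The direction of the difference went with the spot row in the tested Olr probes. The row windows used here were set after the values were seen. In spot rows 1 to 20 all 22 tested Olr probes had a higher mean in PNFLX, with a median difference of 1.18. Of these 22, 22, 22, 19 and 22 were above background on the PNFLX arrays, and 12, 12, 5 and 11 on the control arrays, so that many entered the test through PNFLX. In rows 21 to 76 the median was 0.05 (47 of 79 higher), and in rows 77 to 104 it was 0.04 (27 of 51 higher). In the next window, up to row 132, it was -0.38 (10 of 44 higher). In rows 133 to 172 it was -0.67, and 72 of 73 tested Olr probes were lower in PNFLX, the exception being Olr159 in row 138 at 0.04. In rows 173 to 192 it was -0.68 (4 of 21 higher). There 12, 14, 10 and 9 of the tested probes were above background on the PNFLX arrays, and 17, 21, 18 and 20 on the control arrays. Some of them thus entered the test through control. The untested, dim probes did not share this course. Their median was -0.15 in rows 1 to 20 (42 of 99 higher), 0.072 in rows 133 to 172 (100 of 183 higher) and 0.34 in rows 173 to 192 (66 of 90 higher). With PNFLX 3 left out, these medians were -0.38, -0.33 and -0.007, so the higher values in the later rows depended on that array. Over all Olr probes, tested or not, the medians in these 3 windows were 0.16 (64 of 121 higher), -0.21 (101 of 256 higher) and 0.23 (70 of 111 higher). With PNFLX 3 left out, they were -0.10, -0.47 and -0.23. The 118 probes above background everywhere followed the same course, with medians of 0.45 (n = 4), 0.06 (n = 40), 0.11 (n = 25), -0.22 (n = 12), -0.49 (n = 32) and -0.68 (n = 5) from the first window to the last. All 32 of them in rows 133 to 172 were lower in PNFLX. Across the 290 tested probes the spot row correlated with the difference at r = -0.68, and across the 835 untested ones at r = 0.06, as descriptions over probes that share the arrays. From 39.1% to 58.1% of the Olr values on an array were substitutes that the scanner software sets for signals near background. Negative control spots higher in PNFLX numbered 0 of 4 in rows 1 to 5 and 0 of 6 in rows 6 to 20. They numbered 40 of 57 in rows 21 to 172 and 9 of 10 in rows 173 to 187. In rows 21 to 172 their medians were -8.56, -8.53, -7.04 and -8.84 in PNFLX, and -8.41, -8.53, -7.65 and -8.46 in control. PNFLX 3 alone lay above the controls there. In rows 173 to 187 the medians were -7.44, -7.78, -6.47 and -8.06 in PNFLX, and -8.35, -8.56, -7.58 and -8.09 in control. Shifts of the dim Olr probes and of this floor cannot be told apart here.

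Among the tested Olr probes the arrays of a group moved together along the rows. In rows 133 to 172 the tested Olr probes deviated from their own mean over the 8 arrays by a median of -0.39, -0.23, -0.12 and -0.43 on the PNFLX arrays, and by 0.30, 0.30, 0.39 and 0.46 on the control arrays. In rows 1 to 20 the medians were 0.46, 0.71, 0.76 and 0.46 on the PNFLX arrays, and -0.20, -0.60, -1.05 and -0.43 on the control arrays. Many of the probes there entered the test through PNFLX, which by itself sets them higher in that group. Over all 121 Olr probes in those rows the groups overlapped. The medians were then -0.39, -0.21, 0.67 and 0.09 in PNFLX and -0.06, -0.28, 0.30 and -0.14 in control. In rows 77 to 104 the groups overlapped among the tested probes, at -0.11, 0.16, 0.25 and 0.01 in PNFLX and 0.11, -0.10, 0.14 and 0.13 in control. Detection ran the same way. Of the 121 Olr probes in rows 1 to 20, 29, 44, 24 and 48 were well above background on the PNFLX arrays, and 15, 13, 5 and 12 on the control arrays. Of the 256 in rows 133 to 172, 73, 71, 51 and 66 were above background on the PNFLX arrays, and 91, 95 and 68 on control arrays 1 to 3, with the highest number on control 4. The near-equal totals of the 2 groups given above are therefore sums over opposite differences at the ends of the array.

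Other probes that resemble the Olr probes in level and base composition ran a similar course, with a smaller median than the tested Olr probes in rows 1 to 20 and in rows 133 to 172 and a like one in rows 173 to 192. Tested probes outside the set with a mean level from -6 to -3 and at most 40% A and G had median differences of 0.34 (n = 26), 0.09 (n = 76), -0.02 (n = 35), -0.25 (n = 38), -0.39 (n = 63) and -0.66 (n = 27) over the 6 windows. Those of the same level with over 40% A and G had medians of 0.15, -0.05, -0.01, -0.17, -0.09 and 0.02. The part of spot row and base composition in the 10 calls was not tested by any fit beyond those given here. With the first and last 5 spot rows left out, limma called 0 of the 280 Olr probes that remained and 0 of all 11056 probes, with 22 Olr probes higher and 61 lower at an unadjusted p under 0.05, where 4.36% of all probes were higher and 7.05% lower. The differences of the 8 called probes that remained were the same as in the full fit, and their adjusted p in limma ran from 0.095 to 0.126. Within rows 21 to 172 alone, a choice made after seeing the data, it again called 0 of 247 Olr probes and 0 of 9310, with 10 higher and 58 lower at an unadjusted p under 0.05, where 3.06% of all probes were higher and 7.06% lower.

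**Figure D3:**
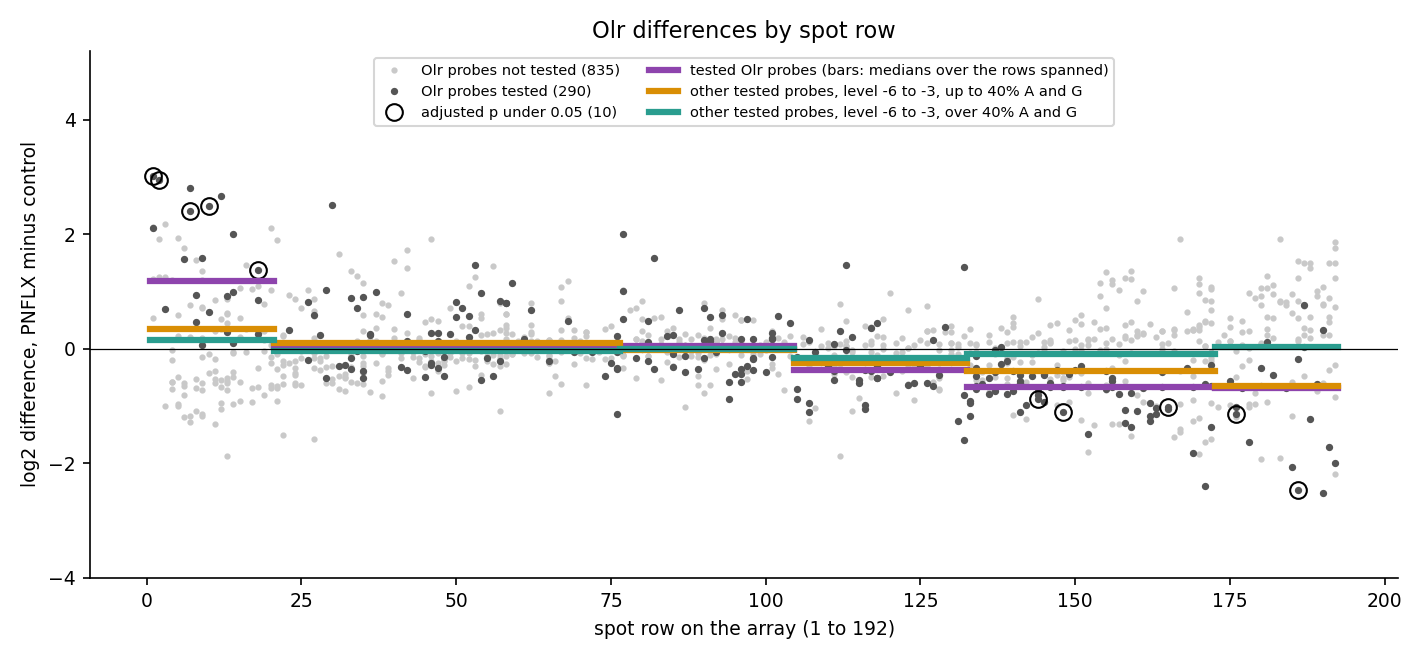
Log2 difference (PNFLX minus control) of each Olr probe against its spot row, tested probes dark, untested ones pale, called ones circled. Bars are medians over the rows they span, for the tested Olr probes (1.18 in rows 1 to 20, -0.67 in rows 133 to 172) and for other tested probes of level -6 to -3 with up to 40% and over 40% A and G.

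The 20 Olr oligonucleotides spotted at 2 places measure the same molecule at different rows. The sign of the difference between PNFLX and control was opposite at the 2 spots for 11 of the 20, and the differences lay a median of 0.56 apart, from 0.01 to 3.52. For 1654 other oligonucleotides spotted at 2 places the median was 0.25, with 637 of opposite sign. Among the 592 of them with a spot outside rows 21 to 172 it was 0.42, and 272 had the lower difference at the spot of higher row number. Among the 1062 inside those rows it was 0.18, and 492 did so. Of the 7 Olr pairs with a spot outside rows 21 to 172, all 7 had the lower difference at the spot of higher row number, and 4 differed by more than 1 between spots. Of the 13 pairs inside those rows, 7 did so and none differed by more than 1. The largest gaps were those of Olr728, Olr226 and Olr837, whose shared sequences are shown because the differences at the 2 spots lay farthest apart for them (that of Olr226 is among the called probes above).
Olr728 (Or4c52), chr3:74333253-74333312, plus strand: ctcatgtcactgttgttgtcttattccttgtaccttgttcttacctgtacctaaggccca
Olr837 (Or13c7e), chr5:60267074-60267133, minus strand: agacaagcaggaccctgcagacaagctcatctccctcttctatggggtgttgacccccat

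Olr728 in row 21 had levels of -4.73, -5.41, -4.62 and -5.45 in PNFLX, against -7.51, -6.46, -6.76 and -7.05 in control, a difference of 1.89. That spot was above background on 3 arrays and did not pass the filter. The same oligonucleotide in row 178 had levels of -5.82, -6.56, -6.55 and -6.87 in PNFLX, against -4.63, -4.62, -4.49 and -5.56 in control, a difference of -1.63 (SE 0.30, limma adjusted p = 0.066). At neither spot did the groups overlap, and they were separated in opposite directions. Olr226 in row 77 had levels of -6.47, -5.49, -5.25 and -5.54 in PNFLX, against -6.96, -7.23, -6.55 and -6.09 in control, a difference of 1.02 with overlapping groups, while its spot in row 186 was called lower. The row 77 spot, too, was above background on 3 arrays and did not pass the filter. Olr837 in row 114 had levels of -3.49, -3.44, -2.90 and -3.47 in PNFLX, against -3.75, -4.15, -3.12 and -3.09 in control (difference 0.20, SE 0.27, limma adjusted p = 0.779). In row 192 it had levels of -5.27, -5.42, -2.86 and -5.74 in PNFLX, against -2.92, -3.34, -2.79 and -2.27 in control (SE of the difference 0.60, limma adjusted p = 0.229). There PNFLX 1, 2 and 4 lay below all controls, and PNFLX 3 lay within their range. Pairs placed closer together ranged from like to unlike values. Olr1307 differed by -0.95 in row 133 and -1.06 in row 165, and Olr1280 by -1.26 in row 131 and -1.10 in row 141. Olr1356 differed by 1.04 in row 17 and 0.058 in row 25, and Olr1078 by 0.70 in row 3 and -0.38 in row 35. Each Olr1356 spot was above background on 1 array only, and the SE without the filter was 0.58 in row 17 and 0.70 in row 25.

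**Figure D4:**
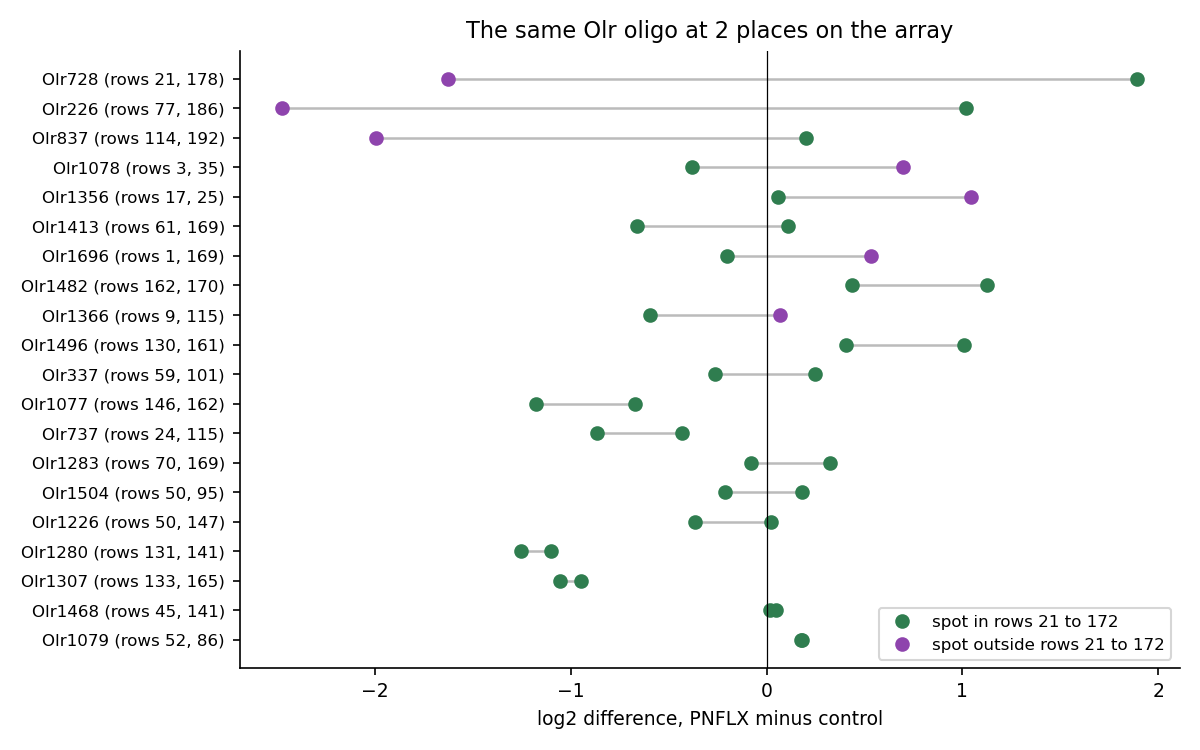
Log2 difference (PNFLX minus control) at each spot of the 20 Olr oligonucleotides that were spotted at 2 places, joined by a line, with spots inside rows 21 to 172 in green and outside in purple. The sign is opposite for 11 of the 20, and the widest lines are those of Olr728, Olr226 and Olr837.

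PNFLX 3 differed from the other 7 arrays in the Olr probes. It was the highest array for 581 of the 1125 (51.6%), where each of the other arrays was highest for 49 to 135. It exceeded all other arrays by more than 1 (log2) for 106 Olr probes (9.42%) and by more than 2 for 48, against 3 to 9 and 0 to 2 on each other array. Among probes outside the set it did so by more than 1 for 7.59%. It was the highest array for 3887 of those 14082 probes (27.6%), more than any other array. The negative control median was also highest on PNFLX 3, at -7.00 against -8.77 to -7.60 on the other arrays. The file header also marks the mean of the negative control spots as out of range on PNFLX 3 and on no other array. The median Olr excess of PNFLX 3 over the median of the other 7 arrays was 1.02 in processed signal but 0.19 in mean brightness before background correction. For the probes outside the set these values were 0.12 and 0.20.

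The excess on PNFLX 3 went with the purine content of the probe. It had a median of 0.59 for the 523 Olr probes with up to 40% A and G, of 1.16 for 432 at 40% to 50%, of 1.52 for 127 at 50% to 60%, and of 2.77 for 43 above 60%. The share of probes with an excess over 2 was 2.10%, 8.56%, 32.3% and 62.8% in these 4 classes. The correlation across the 1125 probes was r = 0.51. Other probes with a mean level under -5 had medians of 0.64, 0.79, 1.29 and 2.05 in the same classes, so the relation was also present outside the Olr set. For oligonucleotides spotted at 2 places, the excess on PNFLX 3 correlated between the 2 spots at r = 0.82 over the 20 Olr pairs. Over 1654 other pairs it did so at r = 0.66. The probes with the largest gap between PNFLX 3 and the next highest array were chosen for that gap, so their values are a description. The sequences of the 5 largest are shown, with purine runs of 5 or more in capitals; in the order printed they hold 63.3%, 50%, 48.3%, 56.7% and 71.7% A and G, so that not all of them are rich in purines.
Olr1482 (Or1e16), chr10:60649265-60649324, plus strand: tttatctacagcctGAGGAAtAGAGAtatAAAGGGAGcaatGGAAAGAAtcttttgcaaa
Olr365 (Or5b116), chr1:216705158-216705217, plus strand: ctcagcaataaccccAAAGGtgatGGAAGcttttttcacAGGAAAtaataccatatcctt
Olr131 (Or51b17), chr1:161779004-161779063, minus strand: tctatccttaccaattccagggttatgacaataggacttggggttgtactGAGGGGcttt
Olr180 (Or52e8), chr1:162835019-162835078, minus strand: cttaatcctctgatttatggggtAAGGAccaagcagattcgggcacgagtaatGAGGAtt
Olr282 (Or10a3), chr1:166596308-166596367, plus strand: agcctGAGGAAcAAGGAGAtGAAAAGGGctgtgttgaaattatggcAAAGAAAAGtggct

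Olr1482 had a level of -2.45 on PNFLX 3 in spot row 170, against -7.93, -8.10 and -8.07 on the other PNFLX arrays and -6.91, -8.37, -7.42 and -8.35 in control. Its second spot, in row 162, read -3.80 on PNFLX 3, against -8.54, -8.34 and -8.57 on the other PNFLX arrays and -6.48, -8.73, -7.70 and -8.10 in control. Both spots were thus high on PNFLX 3 alone, and 63.3% of the sequence is A and G. Olr282, with 71.7% A and G, read -2.07 on PNFLX 3, against -7.87 to -6.59 on the other PNFLX arrays and -8.20 to -5.81 in control. Olr365 read -3.54 on PNFLX 3, against -8.90 to -8.54 on the other PNFLX arrays and -8.80 to -7.81 in control. All 5 probes were well above background on PNFLX 3 and on no other array. The 5 called probes that were higher in PNFLX hold 28.3% to 41.7% A and G and no purine run of 5. Of the 22 tested Olr probes in rows 1 to 20, where these 5 lie, 14 hold at most 40%. The median over all 1125 Olr probes was 41.7%. For none of the 5 was PNFLX 3 the highest array by more than 1. A call in limma needs a small spread within PNFLX, so this was largely set by how the 5 were chosen.

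With PNFLX 3 left out of the fit, 12 Olr probes were called, 4 higher and 8 lower in PNFLX, of which 7 are among the 10, and calls over all probes were 104 rather than 78. The median difference of the tested Olr probes was then -0.27, and in rows 133 to 172 it was -0.73. Over all 1125 Olr probes, 307 (27.3%) had a higher mean in PNFLX without that array, against 559 (49.7%) with it.

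**Figure D5:**
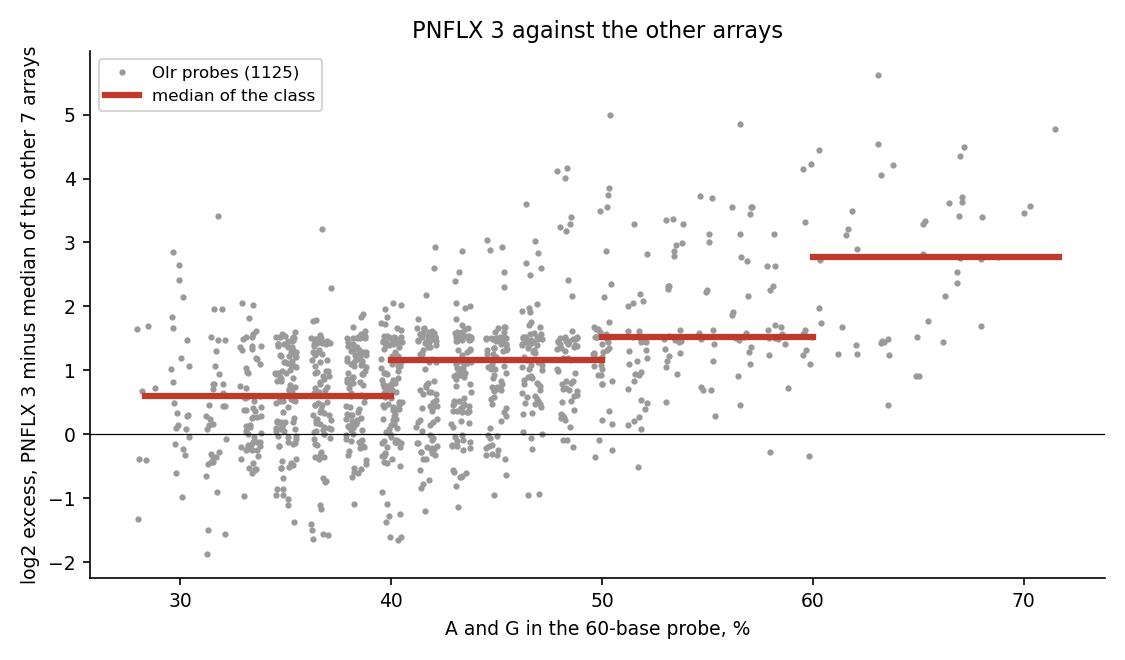
Log2 excess of PNFLX 3 over the median of the other 7 arrays for each of the 1125 Olr probes, against the share of A and G in the 60-base probe (percent, points spread sideways by up to 0.5). Bars are the medians of 4 composition classes, 0.59, 1.16, 1.52 and 2.77 from the lowest share to the highest.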

How the data were processed

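RNA was labelled with Cy3 and hybridised to single-colour arrays, per the labels' protocols. Spot intensity (processed signal, mean brightness, local background) and flags come from Agilent Feature Extraction 10.5.1.1, per the file headers, which name build rn4; signals were not normalized between arrays. The authors' deposited log2 table matched the scanner values within 0.0024 once these were scaled by the 75th percentile and each probe was centred on its median; it was used as an alternative. Here log2 processed signals were scaled by the 75th percentile, outlier-flagged spots were dropped, and limma 3.58.1 (R 4.3.3) was fitted with group as the only term to 11600 probes, 1 row per probe, threshold 0.05. SE is limma's moderated standard error, and differences are PNFLX minus control. On simulated data 43.6% of 2-fold and 78.9% of 4-fold changes were recovered over 11246 probes. Only 8 arrays limit the precision. Named are all called Olr probes, the 10 brightest and the 10 of smallest p in the test, all probes of genes so named, and those called without the filter; pairs and PNFLX 3 probes were chosen by their values. Members and lists were chosen with earlier results of these data known. The sample descriptions give end days of treatment that climb to 28 along the sample list; the protocol's day 21 was followed. Of the olfactory signalling list, Ano2, Gng13, Rtp1, Rtp2 and Emx2 were not matched to a probe, nor was any vomeronasal type 2 receptor. Olr sequences are those of the scanner files and gene names those of RefSeq (assembly GRCr8), used for names and neighbours only.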

Additional observations from a re-analysis of the deposited data

Results flagged for a closer look

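In a group of 4 arrays a value was singled out when its gap to the nearest other array took up most of the group's range. This picked 5 of 54 groups of 4 values examined, where chance picks about 1 in 20. The Olr median of PNFLX 3, -6.61, stood above the other PNFLX arrays. Control 3 stood above the other controls for Olr514 in spot row 20 (-7.29), Olr309 in row 52 (0.20) and Olr821 in row 87 (1.33). Control 1 stood below them for Olr1638 in row 165 (-4.60).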

How the results depend on the processing

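The count of 10 called Olr probes was 1 among probes above background on all 8 arrays, 27 (10 higher, 17 lower) with normexp background correction, 26 (6 higher, 20 lower) with mean brightness, 5 with row and column medians subtracted, and 0 without the first and last 5 spot rows, within rows 21 to 172 and with the replicate block. Normexp and mean brightness also raised the calls over all probes to 628 and 450, from 78. Leaving out 1 array at a time gave 3 to 12 calls, with 5 without PNFLX 1, 4 without PNFLX 2, 6 without PNFLX 4, 5 without control 2, 3 without control 3 and 5 without control 4. The cause was not tested. Same-numbered samples deviated together by correlations of 0.01 to 0.09, so the numbers were not taken as pairs; with the block 13 probes of all were called. The median difference of the tested Olr probes (-0.24) was -0.0039 with no filter, 0.059 without scaling (where other probes had 0.26) and -0.067 with normexp, and -0.28 to -0.16 with 1 array left out. The share of detected Olr probes, 0.42 points lower in PNFLX, ran from -2.66 to 2.06 with 1 array left out. The first 5 spot rows stood 0.68 above the inner rows in the median difference of all Olr probes. This was 0.14 with normexp, 0.28 with mean brightness and 0.044 with row and column medians subtracted, and 0.44 to 0.99 with 1 array left out. The last 5 rows stood 0.49 above, and this was -0.024, -0.073 and 1.17 under the same 3 settings, and 0.30 to 0.61 with 1 array left out. Against the 95th percentile of the negative controls the Olr median lay at -0.18 rather than 0.80 above their median. By probe, the call held most often for Olr694 (15 of 19 alternatives), Olr46 and Olr56 (14 of 18 each), and least often for Olr575 (7 of 19), Olr1638 (5 of 20) and Olr336 (1 of 20). Every called Olr probe kept its direction under each alternative in which it was tested. Low signal over background limits what can be said of the 835 untested probes.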

Other observations

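Beside the 5 called probes without signal in 1 group (Olr46, Olr56, Olr694 and Olr769 in control, Olr226 in PNFLX), 6 Olr probes were well above background on all 4 arrays of 1 group and on none of the other without passing the test, and they were chosen here after their values were seen. Olr527 (Or8h6) in spot row 7 was at least 4.57-fold higher in PNFLX, with levels of -5.07, -2.77, -3.53 and -3.24 in PNFLX and -5.54, -6.02, -6.87 and -7.41 in control (limma adjusted p = 0.080). Olr1691 (Or14j5b) in row 1 was at least 2.81-fold higher (limma adjusted p = 0.110) and Olr1236 (Or8b42) in row 14 at least 2.27-fold higher (limma adjusted p = 0.160). Olr1071 (Or9k2b) in row 171 was at least 2.84-fold lower in PNFLX, with levels of -5.99, -6.27, -6.60 and -8.37 in PNFLX and -4.08, -4.47, -4.12 and -4.96 in control (limma adjusted p = 0.089). Olr235 (Or5p5b) in row 172 was at least 2.46-fold lower (limma adjusted p = 0.067), and the row 178 spot of Olr728 at least 2.08-fold lower. All 7 probes with signal in PNFLX alone lie in rows 1 to 14, and all 4 with signal in control alone in rows 171 to 186. The like count among probes outside the set was not made. Of those probes in rows 1 to 5, 74.3% to 84.9% were above background on PNFLX arrays and 58.9% to 65.1% on control arrays. These shares were 74.9% to 81.4% and 68.6% to 74.0% in rows 6 to 20. In rows 173 to 187 they were 74.2% to 83.3% and 75.7% to 82.1%.

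In the last 5 spot rows the dim and the brighter Olr probes went apart. All 33 Olr probes there had a median difference of 0.46, which was 0.04 with PNFLX 3 left out, while the 6 that were tested had -1.47. The 344 other probes there had -0.43, or -0.67 with PNFLX 3 left out. Whether the dim ones followed the floor of the array there was not tested.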
